A study of Rattus norvegicus with 36 samples.

Results

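The mammary glands of Cop control rats were compared between 30 d after saline, a vehicle injection given at 55 days of age, and 6 h and 1 d after it. The comparison takes the 3 Cop control arrays labelled 30 d against the 6 labelled 6 h or 1 d, which together are 9 of the 36 arrays of the series. All 9 came from rats of the Cop (Copenhagen) strain that received saline and no carcinogen. The same 3 times in F344 (Fischer) controls, also 9 arrays of rats given saline at 55 days of age, served to test whether a change to 30 d differed between the strains. The other 18 arrays came from rats of both strains given the carcinogen N-nitrosomethylurea. All 36 arrays entered the estimate of the spread between replicates. Expression was measured in mammary gland RNA on Affymetrix rat arrays, and all values are the authors' log2 values per probe set. The labels give neither the time of day at collection nor whether each replicate is a separate animal, so the p-values measure the spread between arrays.

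The rat mammary gland is a tree of epithelial ducts, with an inner luminal layer and an outer contractile basal layer, set in a pad of white fat that holds fibroblasts, vessels and immune cells. Fat cells and milk-secreting epithelium both make fatty acids from glucose-derived citrate. Genes of fatty acid and sterol synthesis are driven by the SREBP transcription factors, and those of fatty acid synthesis also by the carbohydrate sensor ChREBP, the product of Mlxipl.

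Array medians of the 9 Cop control arrays lay between 5.71 and 5.73. The log2 difference between 3′ and 5′ control probe sets, a measure of RNA integrity, was 0.040 to 0.117 for Gapdh at 30 d and 0.088 to 0.291 at 6 h and 1 d. For beta-actin it was 0.389 to 0.526 at 30 d and 0.426 to 0.726 earlier, and for hexokinase 1.08 to 1.23 at 30 d and 0.985 to 1.34 earlier. Markers of the gland were measured on every array, for example luminal keratin Krt8 (9.70 to 10.91 at 30 d and 9.82 to 10.25 earlier) and the fat cell hormone Adipoq (11.59 to 12.18 at 30 d and 11.36 to 12.19 earlier). The array of 30 d replicate 2 stood apart: it lay at 57.4 on the first principal component of the 9 arrays, against -36.1 to 12.2 for the other 8. Source names of replicate 2 at all 3 times read FCop and not Cop, while their titles read Cop. The titles were followed.

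At 30 d, 1557 of 20748 probe sets tested differed from the earlier glands (7.5%, limma adjusted p under 0.05), of which 381 were higher (1.84%) and 1176 lower (5.67%). Counted by gene, with the brightest probe set standing for each gene, 975 of 11509 genes differed (8.47%), 224 higher (1.95%) and 751 lower (6.53%). The median change over all genes was -0.03. Most changes were small: 37 probe sets rose and 137 fell by more than 1 on the log2 scale. Without 30 d replicate 2, 511 probe sets passed, and 468 of them were among the 1557 (30.1% of the 1557, 91.6% of the 511). All 1557 kept their sign. With the 9 Cop control arrays alone 663 passed. Without 1 d replicate 2, 890 passed. Within the earlier glands, 1 d differed from 6 h in 103 probe sets (0.496%), and in 9 without 6 h replicate 2 and 186 without 6 h replicate 3. Against 6 h alone 1646 probe sets differed (7.93%), and against 1 d alone 889 (4.28%). Only 458 probe sets passed against each of the 2 times in the same direction.

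The 15 largest falls were taken among called genes with 1 symbol and no overlap between 30 d and earlier arrays. They included enzymes of fatty acid synthesis and of triglyceride and glycogen assembly, and all 15 passed whichever Cop array was left out. Lipid synthesis as a whole was lower: 14 of 19 fatty acid synthesis genes and 14 of 18 sterol synthesis genes fell and none rose, against 6.53% lower and 1.95% higher among all genes. The median change was -1.03 for fatty acid synthesis and -0.87 for sterol synthesis. On every fatty acid gene that fell except Scd and Elovl5, and on all 14 sterol genes, the 3 arrays at 30 d lay below all 6 earlier arrays, which 7.98% of all genes did. Without 30 d replicate 2, 12 members of each list passed. In bulk tissue, fewer cells of a type and less RNA per cell cannot be told apart.

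Promoters of 4 of these genes are shown because both lists moved together, and they were chosen after the values were seen. Each is a window of 300 bases around an annotated start, from RefSeq (build GRCr8), printed 5′ to 3′ on the gene's strand. Capitals mark CCAAT, read as ATTGG on the opposite strand, and the E-box CACGTG. Insig1 lies at chr4:8057720-8058019 (minus strand), Hsd17b7 at chr13:84722705-84723004 (minus strand), Nsdhl at chrX:155817110-155817409 (plus strand) and Pnpla3 at chr7:117173278-117173577 (plus strand).
Insig1: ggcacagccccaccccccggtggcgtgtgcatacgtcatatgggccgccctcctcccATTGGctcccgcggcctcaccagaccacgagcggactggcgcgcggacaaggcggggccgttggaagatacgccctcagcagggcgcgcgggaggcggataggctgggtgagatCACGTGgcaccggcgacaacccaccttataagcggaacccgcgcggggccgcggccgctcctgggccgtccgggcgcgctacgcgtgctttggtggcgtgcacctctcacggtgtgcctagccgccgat
Hsd17b7: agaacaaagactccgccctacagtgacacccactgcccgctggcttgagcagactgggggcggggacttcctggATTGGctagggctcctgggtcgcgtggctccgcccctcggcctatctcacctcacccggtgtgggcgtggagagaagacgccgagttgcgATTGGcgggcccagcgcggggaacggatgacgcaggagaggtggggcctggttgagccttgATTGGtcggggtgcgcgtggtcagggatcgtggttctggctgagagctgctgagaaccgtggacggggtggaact
Nsdhl: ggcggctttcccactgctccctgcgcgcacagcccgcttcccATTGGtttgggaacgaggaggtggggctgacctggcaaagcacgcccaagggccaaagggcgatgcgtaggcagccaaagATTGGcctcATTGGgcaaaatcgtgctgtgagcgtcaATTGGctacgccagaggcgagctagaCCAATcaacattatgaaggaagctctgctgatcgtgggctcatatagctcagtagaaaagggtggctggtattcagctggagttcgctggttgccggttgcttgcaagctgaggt
Pnpla3: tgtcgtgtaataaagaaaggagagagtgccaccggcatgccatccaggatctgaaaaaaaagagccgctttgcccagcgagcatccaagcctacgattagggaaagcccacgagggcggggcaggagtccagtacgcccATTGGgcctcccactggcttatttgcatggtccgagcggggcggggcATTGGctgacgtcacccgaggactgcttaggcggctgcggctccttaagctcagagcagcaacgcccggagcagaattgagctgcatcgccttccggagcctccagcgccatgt

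CCAAT occurred once in the Insig1 promoter, 3 times in that of Hsd17b7, 5 times in that of Nsdhl and 2 times in that of Pnpla3, counting both strands. It occurred on either strand in 12 of the 15 sterol synthesis promoters found in the table (80.0%) and in 12 of 16 fatty acid synthesis promoters (75.0%). Among the members called, the shares were near these: 10 of 12 sterol promoters (83.3%) and 8 of 11 fatty acid promoters (72.7%). Of all 33469 promoters given 37.49% held it, and among the promoters of 9560 genes tested on the array 37.65% did. CACGTG was found in 2 sterol and 1 fatty acid promoters, against 9.5% of the promoters of tested genes. The string TCACNCCAC, searched on both strands, was in none of either list and in 1.11% of the promoters of tested genes. No CCAAT match overlapped a CACGTG match in the 4 promoters shown. Fasn, Elovl6, Acaca, Sqle, Fdft1 and Stard4 were not matched.

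Elovl6, which elongates palmitate to stearate, had values of 6.29, 6.40 and 6.46 at 30 d, against a lowest of 8.40, a median of 9.48 and a highest of 10.43 over the 6 earlier arrays. The arrays did not overlap and the 3 at 30 d were tightly grouped, with a change of -3.00 (SE 0.35, limma adjusted p = 2.38e-06). Pnpla3, a lipid droplet hydrolase, had 6.06, 5.55 and 6.48 at 30 d and 8.71, 9.55 and 9.88 (lowest, median, highest) earlier. It fell by 3.36 on its brightest probe set (SE 0.48, limma adjusted p = 4.99e-05). By brightest probe set, this was the largest change among called genes with 1 symbol and no overlap. The 2 other probe sets of Pnpla3 changed by -3.70 and -2.47, and both passed. Gpam, the mitochondrial acyltransferase that starts glycerolipid assembly, had 6.18, 4.93 and 5.38 at 30 d, against 7.66, 8.07 and 8.68 earlier. Replicate 2 was the lowest of the 30 d arrays here, and the change was -2.57 (SE 0.34, limma adjusted p = 1.91e-05).

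The core enzymes of the pathway fell too. Acly, which cleaves citrate to acetyl-CoA, stood at 10.28, 10.64 and 10.66 at 30 d, against 11.88, 12.12 and 12.49 (lowest, median, highest) at 6 h and 1 d. Acaca, the acetyl-CoA carboxylase that commits carbon to fatty acids, stood at 9.17, 9.49 and 9.68, against 10.63, 11.07 and 11.34. In both, every 30 d array lay below every earlier array, and the changes were -1.60 (limma adjusted p = 2.22e-05) and -1.55 (limma adjusted p = 1.21e-06). Fasn, fatty acid synthase, had 11.31, 11.61 and 11.82 at 30 d and 12.34, 12.62 and 12.90 earlier, a change of -1.04 (SE 0.18, limma adjusted p = 0.000397), with -1.56 on its other probe set. Me1, the malic enzyme that supplies NADPH, fell by 1.90, the acetyl-CoA synthetase Acss2 by 1.32, the mitochondrial citrate carrier Slc25a1 by 1.02, and Thrsp, the spot 14 protein of lipogenic tissue, by 0.81 (limma adjusted p between 2.40e-07 and 0.00208 for these 4).

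Of the regulators, Mlxipl had 5.85, 5.86 and 5.26 at 30 d, against 7.00, 7.39 and 7.58 earlier. It fell by 1.70 without overlap (SE 0.26, limma adjusted p = 0.000109). Srebf1, which encodes the SREBP form that acts on fatty acid genes, had 10.14, 10.37 and 10.12 at 30 d against 10.05 to 10.50 earlier, and Srebf2, the form that acts on sterol genes, had 8.22, 8.25 and 8.11 against 8.12 to 8.60. Neither passed (limma adjusted p = 0.858 and 0.305), and their 30 d values lay within the earlier range or at its lower edge. Fads1, Fads2, Scd2 and Acacb did not pass either, with changes of -0.44, -0.06, -0.83 and 0.37.

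In the sterol branch, Insig1, which retains SREBP precursors in the endoplasmic reticulum and is itself an SREBP target, had 10.09, 9.10 and 9.84 at 30 d, against 10.93, 11.44 and 11.61 (lowest, median, highest) earlier. It fell by 1.68 (SE 0.23, limma adjusted p = 2.22e-05), and by 1.39 without replicate 2, the lowest of its 3. Hsd17b7, a 3-ketosteroid reductase of cholesterol synthesis, had 5.23, 5.09 and 5.02 at 30 d and 6.73, 6.84 and 7.16 earlier. Both groups were narrow and 1.77 apart (SE 0.22, limma adjusted p = 4.53e-06). Idi1, the isopentenyl diphosphate isomerase, had 7.89, 7.53 and 7.80 at 30 d, against 8.92, 9.22 and 9.50, a change of -1.46 (limma adjusted p = 2.82e-05). The others that fell run from the mevalonate steps (Mvk, Mvd, Acat2) through squalene (Fdps, Fdft1, Sqle) to the late sterol steps (Lss, Cyp51, Msmo1, Nsdhl, Sc5d), with changes between -1.28 and -0.47. Dhcr7, Srebf2, Stard4 and Tm7sf2 did not pass.

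**Figure D1:**
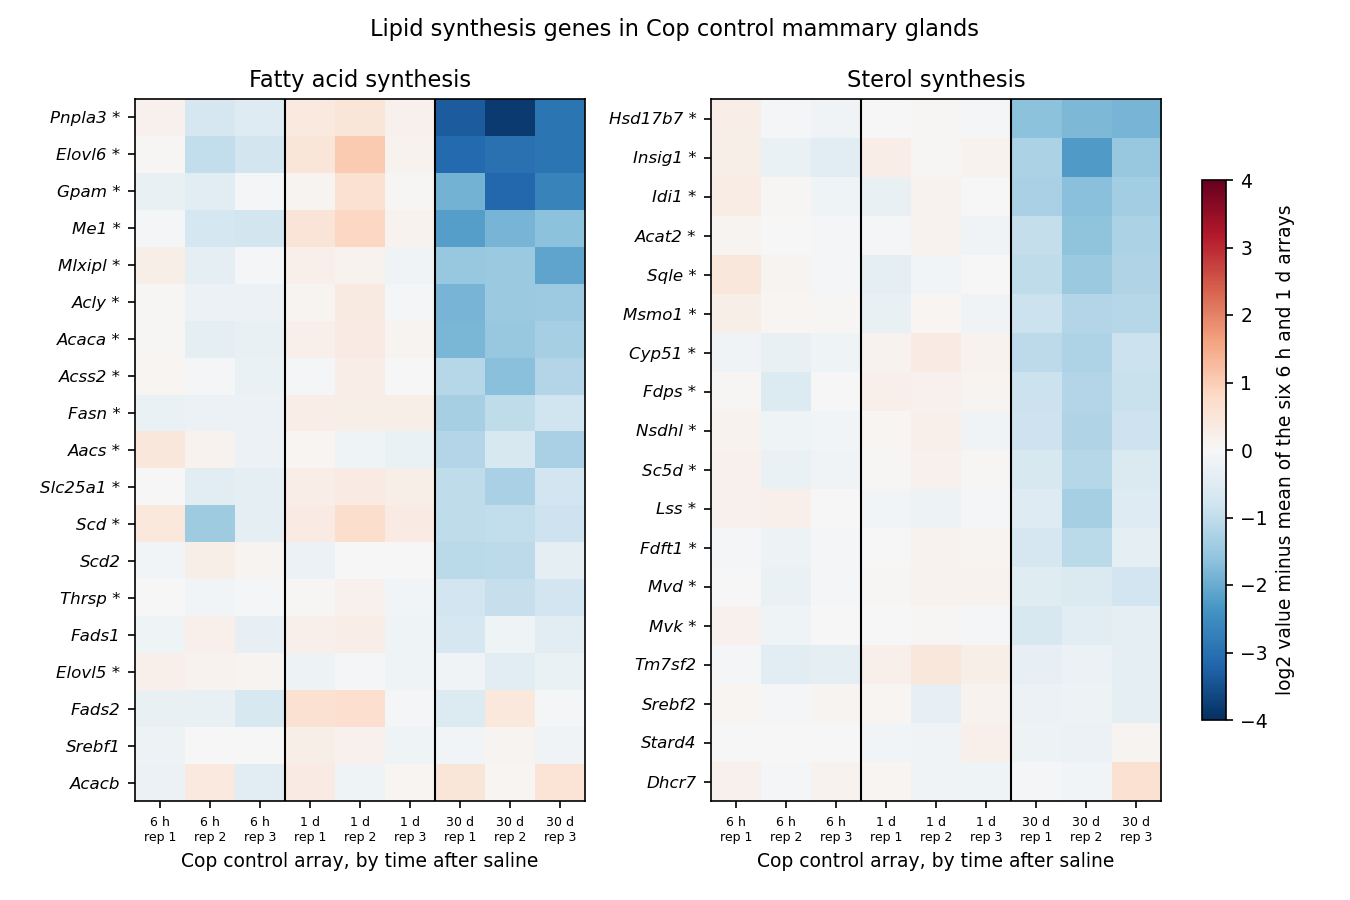
Log2 value of each fatty acid (left) and sterol synthesis gene (right) on each of the 9 Cop control arrays, minus the mean of the 6 arrays at 6 h and 1 d, with an asterisk for genes called at 30 d. The 3 right-hand columns are blue for 14 called genes of each panel, down to -3.36 on average for Pnpla3, while Srebf1 and Srebf2 stay pale.

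Part of the adipocyte genes fell, enzymes of triglyceride assembly as well as Pparg and Cebpa among them. Of 23 adipocyte genes, 10 fell (43.5%, against 6.53% of all genes) and none rose (1.95% of all genes), with a median of -0.35: Agpat2, Gpd1, Dgat2, Slc2a4, Cidec, Dgat1, Thrsp, Pparg, Cebpa and Lpl. Agpat2, which adds the second acyl chain to the glycerol backbone, had 8.87, 8.58 and 9.18 at 30 d, against 10.26, 10.96 and 11.47 earlier, and fell by 2.03 (SE 0.19, limma adjusted p = 5.93e-08). Gpd1, which makes glycerol 3-phosphate, fell by 1.45 (limma adjusted p = 1.76e-06), and Dgat2, which adds the last chain, by 1.45 (limma adjusted p = 1.01e-05). The insulin-responsive glucose carrier Slc2a4 had 7.89, 7.32 and 7.81 at 30 d against 8.09, 8.91 and 9.56, a change of -1.15 (limma adjusted p = 0.000786). The other 13 genes did not pass. Among them, named after their values were seen, were Adipoq (0.16), Fabp4 (-0.13), Cfd (0.14), Cd36 (-0.12), Plin1 (-0.32), Lipe (-0.13), Pnpla2 (0.00) and Lep (0.39). Each of these overlapped between 30 d and earlier. Over the whole list 17 genes had a change below 0 and 6 above. The adipocyte score of an array, the mean deviation over the 23 genes, was -0.16, -0.94 and -0.57 at 30 d and -0.24 to 0.07 earlier, lowest in replicate 2. Its part in the lipid synthesis changes was not tested. Without replicate 2, 7 adipocyte genes passed as lower.

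Angptl8, Ppp1r3b and Gys2 were also among the 15 largest falls. Angptl8, a secreted inhibitor of lipoprotein lipase induced by feeding, had 7.08, 6.11 and 7.29 at 30 d, against 9.27, 9.62 and 9.95 earlier. That gap of -2.79 (SE 0.49, limma adjusted p = 0.000648) was the third largest fall among called genes with 1 symbol and no overlap. Its relative Angptl4, known for its rise in fasting, had 10.47, 9.42 and 9.08 at 30 d and 7.78 to 8.79 earlier without overlap, but did not pass (change 1.31, limma adjusted p = 0.168), nor did Pdk4 (change 1.04, limma adjusted p = 0.357). Ppp1r3b, which brings a phosphatase to glycogen, had 5.97, 5.17 and 6.10 at 30 d and 7.83, 8.24 and 8.58 earlier, and fell by 2.47 (SE 0.45, limma adjusted p = 0.000861). Gys2, the liver-type glycogen synthase, had 4.61, 4.71 and 4.58 at 30 d, against means of 5.53 at 6 h and 7.28 at 1 d. It fell by 1.77 against both times together (limma adjusted p = 4.26e-05) and did not pass against 6 h alone. Of 16 genes of fatty acid oxidation and the fuel switch 2 rose (12.5%, against 1.95% of all genes) and 2 fell (12.5%, against 6.53%). Cpt1a, the gate for fatty acids into mitochondria, rose by 0.86 (limma adjusted p = 0.0126) and the thiolase Acaa2 by 0.45 (limma adjusted p = 0.0224). Angptl8 and Cpt1b fell. Neither rise passed without 30 d replicate 3, and the fall of Cpt1b (-1.14) did not pass against 6 h alone. The rise of Acaa2 also did not pass against 6 h alone, against 1 d alone or with the 9 Cop control arrays alone.

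The remaining large falls were Mrap (-1.94), the accessory protein of the corticotropin receptor, Grtp1 (-1.92), Tmeff1 (-1.81) and Mtarc1 (-1.67), a mitochondrial reductase. Each had its 3 arrays at 30 d below all earlier ones.

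Outside lipid metabolism, heat shock chaperones formed the next list by share: 8 of 15 fell (53.3%, against 6.53% of all genes) and none rose (1.95% of all genes), with a median of -0.55. Hsph1, a large co-chaperone of Hsp70, had 9.01, 8.66 and 8.44 at 30 d, against 9.44, 9.85 and 10.08 earlier, and fell by 1.12 (SE 0.15, limma adjusted p = 1.10e-05). The mitochondrial pair Hspe1 and Hspd1 fell by 0.57 and 0.56, and the Hsp90 activator Ahsa1 by 0.55, each without overlap (limma adjusted p = 0.000138, 0.000861 and 0.000229). Hspa1a, an inducible Hsp70 with near-identical copies, had 7.87, 6.87 and 7.44 at 30 d and 7.52, 8.69 and 9.84 earlier, with overlap and a change of -1.36 (limma adjusted p = 0.00102). The constitutive Hsp90ab1 did not pass (change -0.07). Without replicate 2, 6 heat shock genes passed as lower. In the endoplasmic reticulum, Hspa5, Dnajb11 and Dnajc3 fell, 3 of 23 genes (13.0%, against 6.53% of all genes). None of the 3 passed without replicate 2, and 1 gene of the list passed as lower with the 9 arrays alone.

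Of 20 genes of amino acid synthesis and transport 6 fell (30.0%, against 6.53% of all genes) and none rose, with a median of -0.21, and 5 genes of the list passed as lower without replicate 2. The serine pathway was among them: Psph had 6.66, 6.44 and 6.97 at 30 d, against 7.66, 7.89 and 8.43 earlier, a change of -1.26 (limma adjusted p = 0.000256). Psat1 fell by 0.87 and Phgdh, the first enzyme of that pathway, by 0.58 (limma adjusted p = 0.00176 and 0.0153). The neutral amino acid carrier Slc1a5 fell by 0.83 (limma adjusted p = 5.07e-06), its relative Slc1a4 by 0.47 and asparagine synthetase Asns by 0.61. Of 29 oxidative phosphorylation subunits 6 fell (20.7%, against 6.53% of all genes), led by Ndufs1 of complex I (-0.65, limma adjusted p = 0.000147). However, 11 passed as lower against 1 d alone, 2 against 6 h alone and 2 with the 9 arrays alone. Of 21 xenobiotic genes 4 fell, namely Cbr3, Nqo1, Cbr1 and Gsta1. Without replicate 2 the counts were 4 subunits and 1 xenobiotic gene.

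Circadian clock genes changed in both directions. The clock is a feedback loop in which Bmal1 and Clock drive the Per and Cry repressors, and Nr1d1 (REV-ERB alpha) represses Bmal1 and Nfil3. Of 17 clock genes, Nr1d1, Dbp and Npas2 rose and Cry1, Nfil3, Hlf and Per2 fell, against 1.95% and 6.53% of all genes. Nr1d1 had 8.14, 8.10 and 8.15 at 30 d, against 4.90, 6.27 and 7.03 (lowest, median, highest) earlier. The 30 d arrays were almost equal and lay above all others, 2.04 higher (SE 0.19, limma adjusted p = 3.24e-08). Cry1 had 6.44, 5.68 and 6.35 at 30 d and 7.28, 7.73 and 8.09 earlier, and fell by 1.54 without overlap (SE 0.17, limma adjusted p = 5.38e-07). Nfil3 fell by 1.03 (limma adjusted p = 0.000288) and the output regulator Hlf by 1.06 (limma adjusted p = 0.000861). Per2 fell by 1.14 on its brightest probe set (limma adjusted p = 0.00145), while its other probe set showed a change of 0.36. Bmal1 (0.06), Clock (-0.22) and Per1 (0.44) did not pass.

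The earlier groups differed from each other in part of the clock. Nr1d1 averaged 6.76 at 1 d and 5.41 at 6 h (limma adjusted p = 0.00166), and Dbp, an output regulator, 9.12 and 7.70 (limma adjusted p = 0.000658). Dbp at 30 d (9.08, 8.79 and 9.44) was above 6 h and level with 1 d: the change against 1 d alone was -0.02. Nr1d1 at 30 d lay above both. The call of Dbp was lost without 30 d replicate 3, and Npas2 (1.11, limma adjusted p = 0.0335) passed in 3 of the 9 fits that leave out 1 Cop control array.

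Of 15 iron, heme and globin genes 3 rose (20%, against 1.95% of all genes) and 3 fell (20%, against 6.53% of all genes), and 9 were not called. Hbb, a beta-globin gene in a family of near-identical copies that the array cannot fully separate, had 12.15, 10.94 and 11.43 at 30 d, against 7.99, 9.09 and 9.94 earlier. It rose by 2.47 without overlap (SE 0.26, limma adjusted p = 5.39e-07), and by 2.76 without replicate 2. Alas2, the erythroid enzyme that starts heme synthesis, had 6.42, 4.98 and 5.60 at 30 d and 4.14, 4.38 and 4.77 earlier, and rose by 1.25 (SE 0.24, limma adjusted p = 0.00127). The red cell membrane protein Slc4a1 did not pass (5.43, 5.75 and 5.57 at 30 d, 5.21 to 5.79 earlier). The part of blood left in the glands was not tested. The iron exporter Slc40a1 rose by 0.50 (limma adjusted p = 0.0136), a call lost without 30 d replicate 2 or 3. The importer Slc11a2 had 7.91, 7.29 and 7.71 at 30 d, against 8.44, 8.57 and 8.65, and fell by 0.92 (limma adjusted p = 8.82e-06). Alas1, the housekeeping partner of Alas2, fell by 0.84 (limma adjusted p = 0.000329), and the transferrin receptor Tfrc by 0.68 (limma adjusted p = 0.0414), with overlap and a call in 3 of 9 leave-one-out fits.

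**Figure D2:**
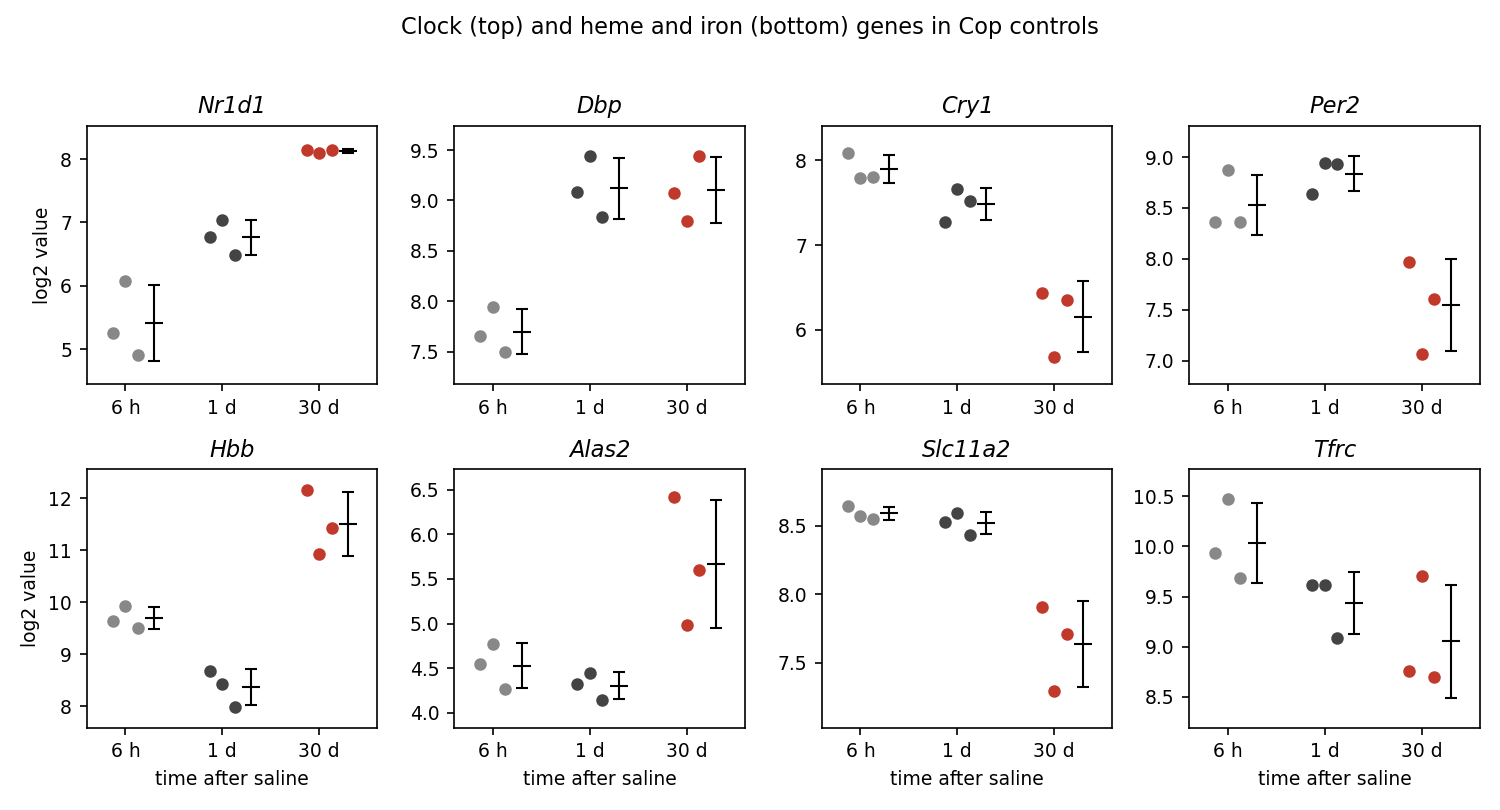
Log2 values of 4 clock genes (top) and 4 heme and iron genes (bottom) on single Cop control arrays at 6 h, 1 d and 30 d (points), with mean and SD of the 3 arrays beside them. Nr1d1, Hbb and Alas2 at 30 d lie above every earlier array, Cry1, Per2 and Slc11a2 below, and Dbp at 30 d is level with 1 d.

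Of 31 fibroblast and matrix genes 6 rose (19.4%, against 1.95% of all genes) and none fell, with a median of 0.27. Without 30 d replicate 2, 5 passed as higher, and without 30 d replicate 3, 3 did. Fn1, fibronectin, had 12.20, 12.26 and 12.08 at 30 d, against 11.10, 11.43 and 11.63 earlier, a rise of 0.77 (SE 0.15, limma adjusted p = 0.00212). Fbn1, fibrillin, had 11.16, 11.04 and 11.23, against 10.07, 10.49 and 10.57, a rise of 0.71 (SE 0.14, limma adjusted p = 0.00133). In both the 30 d arrays were close together and above every earlier array, as in 7 of the 31 genes and in 2.81% of all genes. The collagen cross-linking enzyme Lox rose by 0.96, Sparc by 0.66, Col1a1 by 0.61 and Dpt, dermatopontin, by 0.40 (limma adjusted p between 0.00695 and 0.0288 for these 4). Lox did not pass without 30 d replicate 3 or against 6 h alone. Dcn, Pdgfra and Pdgfrb, general fibroblast markers, did not pass (-0.03, -0.25 and -0.14).

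The largest rise was that of Nnat, an imprinted gene for neuronatin, a small membrane protein. Its values were 11.32, 10.21 and 11.35 at 30 d, with means of 9.43 at 6 h and 6.14 at 1 d. It rose by 3.18 against both (SE 0.66, limma adjusted p = 0.00349) and did not pass against 6 h alone (1.53, limma adjusted p = 0.196). The lipocalin Obp3 rose by 2.24, the sialic acid-binding receptor Siglec5 by 1.87 and the annexin Anxa8 by 1.39, and these 3 likewise did not pass against 6 h alone. Spp1, osteopontin, had 7.03, 7.56 and 8.12 at 30 d, against 5.72, 5.93 and 6.78, and rose by 1.47 (SE 0.22, limma adjusted p = 5.58e-05). Ptges, which makes prostaglandin E2, rose by 1.32 (limma adjusted p = 6.92e-05), and Sfrp1, a secreted Wnt antagonist, by 1.11 (limma adjusted p = 0.00126), both whichever Cop array was left out. The complement regulator Cfi (1.47), Siglec10 (1.37), the network collagen Col8a1 (1.35), Lbp (1.37) and Cirbp (1.03) completed the 15 largest rises. That ranking covers only called genes with 1 symbol and no overlap between 30 d and earlier arrays. Cfi failed without 30 d replicate 3 and Siglec10 and Col8a1 without 30 d replicate 1, while Lbp passed in 1 of 9 such fits and Cirbp in 3. Cfi, Siglec10 and Lbp did not pass against 6 h alone (limma adjusted p = 0.102, 0.0527 and 0.143), Cirbp did not against 1 d alone (limma adjusted p = 0.118), and Col8a1 did not with the 9 arrays alone. The 2 other probe sets of Cirbp changed by 0.13 and 0.35, and neither passed.

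None of 22 luminal genes passed in limma (median 0.26), with 20 of the 22 above 0 and 3 higher at an unadjusted p under 0.05. Of 21 basal genes 2 rose (9.52%, against 1.95% of all genes). These were Acta2 by 0.61 and Trim29 by 0.79 (limma adjusted p = 0.00906 and 0.0254), and neither passed without 30 d replicate 3. Of 18 milk genes, Spp1, Xdh and Folr1 rose (16.7%, against 1.95% of all genes). As higher, 1 gene of the list passed without 30 d replicate 2 or 6 h replicate 1 or 3, and 6 with the skeletal muscle score as a covariate. The caseins and whey proteins scattered widely between glands: Csn2 had 8.56, 13.30 and 11.66 at 30 d, against 10.67, 12.26 and 13.68, and Wap 6.54, 9.83 and 9.07, against 6.48, 9.78 and 11.69. With such overlap neither passed (Csn2 -1.06, SE 1.53, Wap -0.71, SE 1.15, limma adjusted p = 0.711 and 0.746). Lalba (0.56), Elf5 (0.55), Prlr (0.45), Esr1 (0.37), Pgr (0.54), Areg (-0.14), Wnt4 (-0.37), Krt14 (0.21) and Krt8 (0.19) did not pass, nor did Tnfsf11, the RANK ligand (-0.88, limma adjusted p = 0.0669), or the alkylation repair gene Mgmt (-0.38, limma adjusted p = 0.0558). No G2 and M phase gene of 36 and no S phase gene of 29 passed in limma, with 0 of the 36 and, of the 29, 1 higher and 2 lower at an unadjusted p under 0.05. The proliferation marker Mki67 had 5.95, 7.19 and 7.37 at 30 d, against 5.72, 6.67 and 7.62. Of 31 hormone receptors and effectors, Igfbp3 rose and the insulin receptor Insr (-0.89, limma adjusted p = 0.00153) and Egfr fell, shares of 3.23% and 6.45% that lie near those of all genes (1.95% and 6.53%). No gene of that list passed without replicate 2.

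Other cell types gave few calls. None of 18 T and NK cell and none of 13 B cell markers passed in limma, with 1 and 0 at an unadjusted p under 0.05. Of 16 endothelial genes Kdr (-0.74) and Sox18 (-0.52) fell (12.5%), and of 9 mast cell genes Ms4a2 (-0.74) and Hdc (-0.46) fell (22.2%), against 6.53% of all genes, none of these 4 passing without replicate 2. None of 30 skeletal muscle genes passed on its brightest probe set, with 1 at an unadjusted p under 0.05. All 30 changes lay above 0, with a median of 0.84. Of the 4 other probe sets of Myh1, with changes of 0.11 to 0.89, 3 passed. The muscle score was -0.96, -0.34 and -0.34 at 30 d and -2.73 to -0.77 earlier. With this score as a covariate 1433 probe sets passed, 1304 of them shared with the 1557, and of the 14 fatty acid and 14 sterol synthesis genes that fell, 13 and 14 were again called lower.

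**Figure D3:**
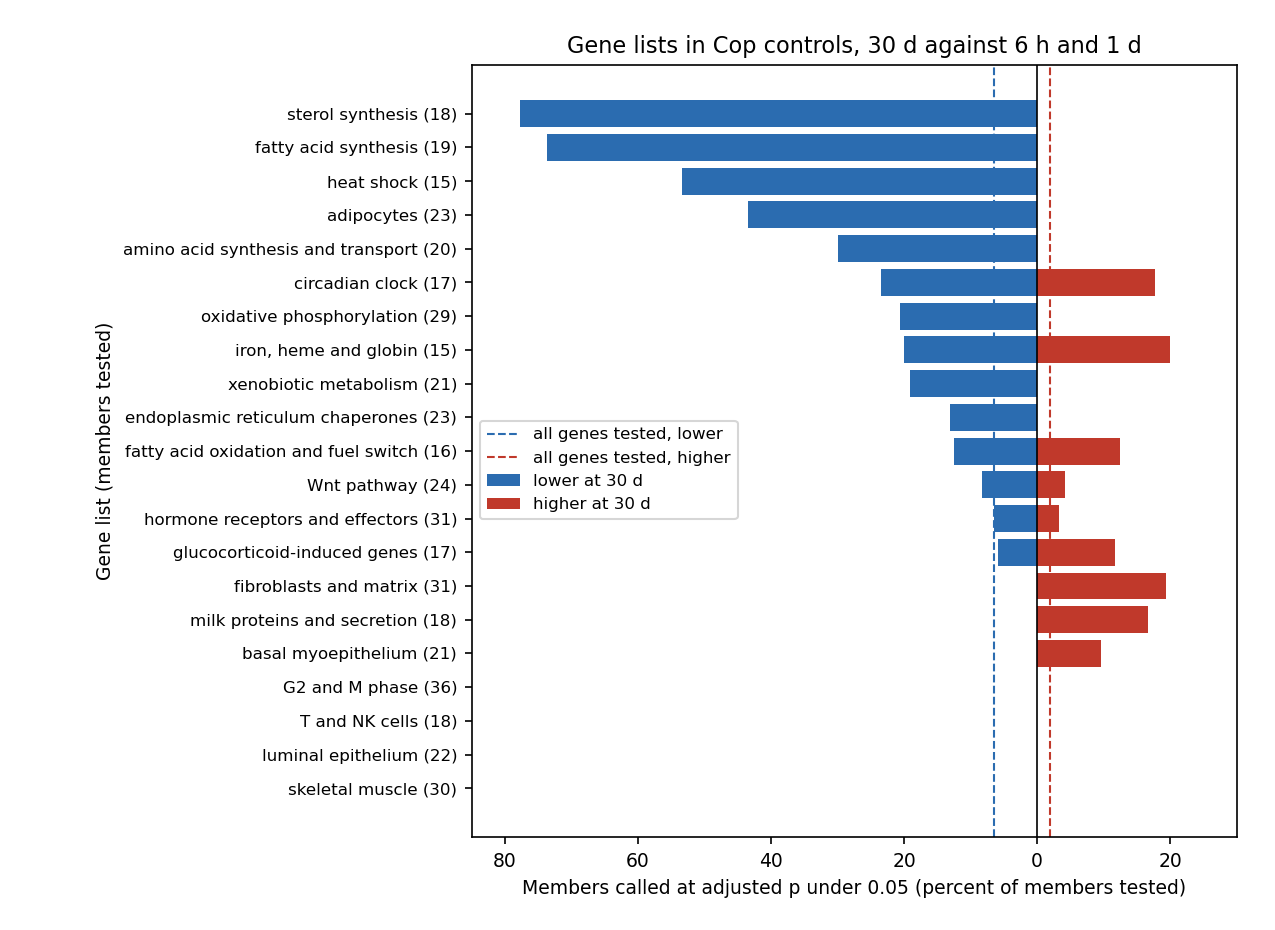
Percent of the tested members of each gene list called lower (blue, left) or higher (red, right) at 30 d against 6 h and 1 d in Cop controls, with the members tested in brackets and dashed lines at the share of all genes (6.53% lower, 1.95% higher). Sterol and fatty acid synthesis reach 77.8% and 73.7% lower, and lists with no bar had no call.

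In F344 controls 5615 probe sets differed between 30 d and the earlier times (27.1%). Of the 1557 Cop calls, 963 were called in the same direction in F344 (61.8% of the Cop calls, 17.2% of the F344 calls) and 10 in the opposite one. The change itself differed between strains in 1054 probe sets (5.08%), 159 of which were among the Cop calls (10.2%). That number was 346 without F344 30 d replicate 1, 515 without Cop 30 d replicate 1, 583 without F344 30 d replicate 3 and 681 without F344 6 h replicate 3. Skeletal muscle genes moved with the strain contrast (median change 0.84 in Cop and -4.73 in F344). With the muscle score as a covariate 41 probe sets passed the strain difference, 38 of them shared with the 1054. Of 33 named genes with a called difference Hbb, Cbr1 and Nr1d1 passed, and 29 kept their sign. The muscle genes Tnnc2, Myl1, Ckm and Tnni2 did not keep it. The difference went from -3.74 to -3.87 for Areg, from 1.62 to 1.75 for Spp1 and from 1.23 to 0.57 for Lox. The part of muscle content in the strain differences was not tested. No sterol synthesis gene of 18 passed the limma test of the difference (3 at an unadjusted p under 0.05). In Cop 14 were lower (6.53% of all genes), with a median of -0.87. In F344 13 were lower (15.4% of all genes), with a median of -0.94. Of 19 fatty acid synthesis genes 2, Acss2 and Slc25a1, differed, with the smaller fall in Cop. Among all genes 2.79% had a called difference above 0. Acss2 changed by -1.32 in Cop and -2.21 in F344 (limma adjusted p of the difference 0.00900). Slc2a4 also fell less in Cop (-1.15 in Cop, -2.80 in F344, difference 1.65, SE 0.30, limma adjusted p = 0.00245), as did Gys2 (-1.77 in Cop, -3.67 in F344, limma adjusted p of the difference 0.00357). With the muscle score as a covariate the difference was 1.22 for Slc2a4 and 2.01 for Gys2, and neither passed (limma adjusted p = 0.21 and 0.0703). Gys2 averaged 4.63 in Cop and 4.84 in F344 at 30 d, both below the lowest median of any array (5.66). Earlier its mean was lower in Cop than in F344. Whether a lower limit of measurement shaped its unequal falls was not tested.

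Hbb changed by 2.47 in Cop and by 0.11 in F344, and the difference passed (2.36, limma adjusted p = 0.00118). So did that of Alas2 (1.25 in Cop, -0.05 in F344, limma adjusted p = 0.0257). The strains differed mainly in the earlier glands: Hbb averaged 9.03 in Cop and 11.20 in F344 earlier, and 11.51 and 11.31 at 30 d. Alas2 averaged 4.42 in Cop and 5.27 in F344 earlier, and 5.67 and 5.23 at 30 d. Within Cop, Hbb also averaged 9.70 at 6 h and 8.37 at 1 d (limma adjusted p = 0.0378). Nr1d1 rose more in Cop (2.04 in Cop, 0.50 in F344, limma adjusted p of the difference 0.00157). It averaged 6.08 in Cop and 7.66 in F344 earlier, and 8.13 and 8.16 at 30 d. Cry1 fell more in Cop (-1.54 in Cop, -0.60 in F344, limma adjusted p of the difference 0.0213). Matrix genes Fbn1 (0.71 in Cop, -0.18 in F344), Lox (0.96 in Cop, -0.28 in F344) and Col1a1 (0.61 in Cop, -0.20 in F344) differed too, as did Spp1 (1.47 in Cop, -0.15 in F344), with limma adjusted p of the difference between 0.00356 and 0.0293 for these 4. Nnat and Sfrp1 rose in both strains, with no difference called (-0.28 and 0.10).

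Proliferation and epithelial genes differed in the other direction. Of 36 G2 and M phase genes none passed in Cop and 35 rose in F344 (16.4% of all genes rose there), and for 17 the change was lower in Cop (3.41% of all genes). Mki67 changed by 0.11 in Cop and by 2.40 in F344 (limma adjusted p of the difference 0.0239). Luminal genes counted 0 rises in Cop and 19 in F344, with 4 differences called, and basal genes 2 and 16, with 6 called, Krt14 among them (0.21 in Cop, 1.66 in F344, limma adjusted p of the difference 0.0422). The widest strain differences were those of skeletal muscle genes, higher in Cop for 24 of 30 (2.79% of all genes) and led by Myl11 (8.23). By brightest probe set, none of the muscle genes passed in Cop, and 28 fell in F344 (15.4% of all genes). Clca1 (-5.12), Areg (-3.74), Fabp3 (-3.19), C3 (-2.96) and Krt15 (-2.84) had the largest differences of the other sign.

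**Figure D4:**
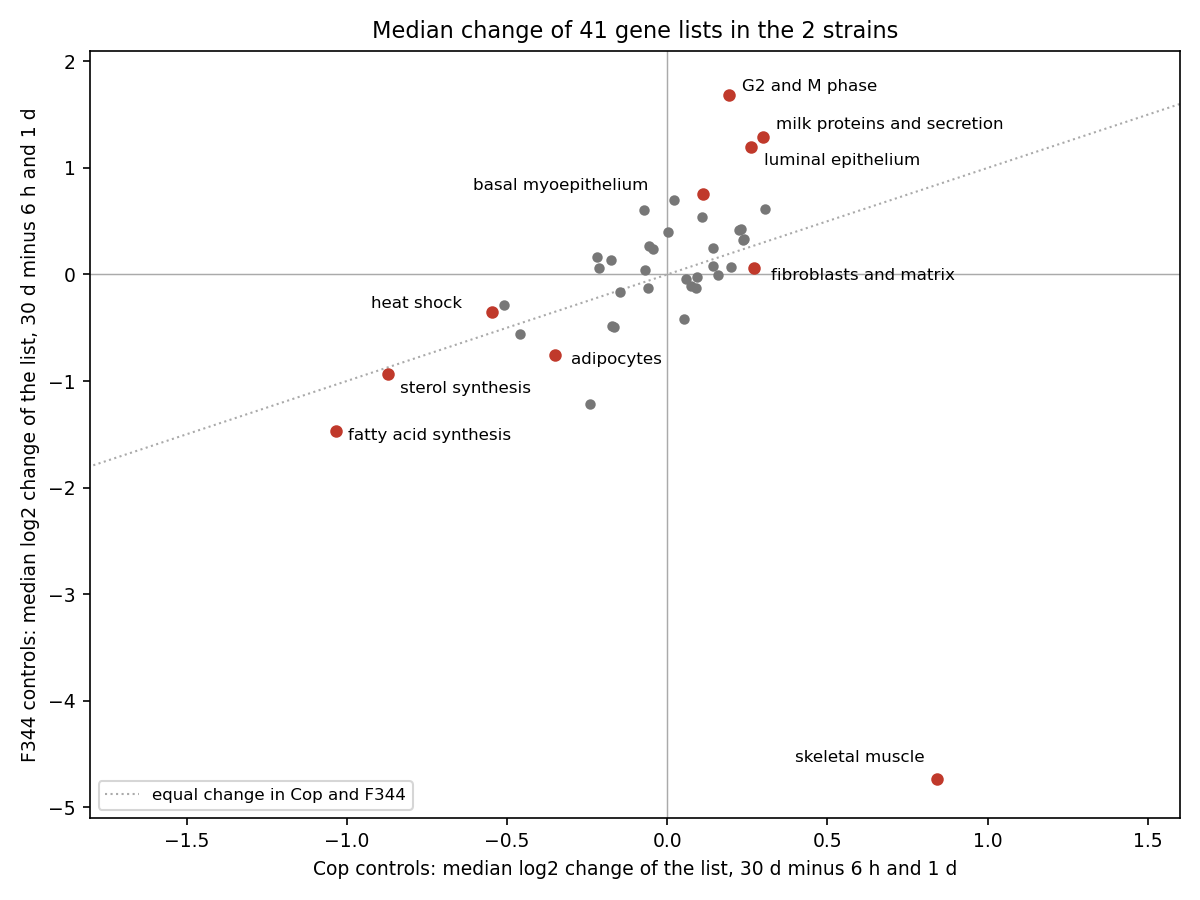
Median log2 change of each of the 41 gene lists between 30 d and the earlier times in Cop controls (x axis) and in F344 controls (y axis), with the dotted line at equal change and labelled lists in red. Sterol synthesis (-0.87 in Cop, -0.94 in F344) lies near the line, whereas G2 and M phase genes (0.19 in Cop, 1.68 in F344) and skeletal muscle (0.84 in Cop, -4.73 in F344) lie far from it.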

How the data were processed

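Affymetrix arrays measured mammary gland RNA of Cop and F344 rats, 36 arrays in 12 groups of 3 by strain, treatment and time. The deposited values are the authors' log2 expression values per probe set, and the submitters' processing notes name GCOS. The labels name no summary or normalization method for the probe signals. The log2 values entered the tests as deposited. Precision is limited by the number of arrays.

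Probe sets above the 40th percentile of their own array on at least 3 arrays were tested (20748), leaving out 10294 dim ones and 57 control probe sets. Symbols came from the platform annotation, updated through Entrez identifiers: of 31099 probe sets, 20832 carry 1 symbol, 436 several and 9831 none. No gene is named from a probe set with several symbols, so 5 globin-like probe sets that rose stay unnamed.

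Using limma 3.58.1 (R 4.3.3; trend and robust options), group means were estimated for the 12 groups together, with two-sided tests and Benjamini-Hochberg adjustment over all probe sets, called under 0.05. The change to 30 d is the 30 d mean minus the mean of the 6 h and 1 d means. The fit was tested on simulated data with known changes. Calls across 3 against 6 arrays share the spread of all groups.

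Members and gene lists were chosen with earlier results of these data known. Named genes are the 15 largest rises and falls among called probe sets with 1 symbol and no overlap between 30 d and earlier arrays, leading list members, 14 mammary genes given regardless, and the 5 largest strain differences of each sign. Other genes, fibroblast markers among them, were named after their values were seen, as were the promoter motifs. A gene is its brightest probe set. Alternatives were another normalization, floor, filters, empirical Bayes options, replicate block, arrays alone, marker covariates and leaving out arrays. Replicate numbers did not pair the arrays: correlations of same-numbered deviations were -0.39 to 0.18, with 2 of 9 over 0.1.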

Additional observations from a re-analysis of the deposited data

Results flagged for a closer look

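For 33 genes named in the text, some of them only here, the change to 30 d in Cop controls minus that in F344 controls passed the test of the difference (limma, adjusted p under 0.05), with 24 differences above 0 and 9 below. All values here are that difference on the log2 scale.

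Among genes lower at 30 d in Cop, the difference was above 0 for Gys2 (1.90), Slc2a4 (1.65), Cbr1 (1.65), Cpt1b (1.55), Slc25a1 (1.04), Acss2 (0.89), Mtarc1 (0.80), Sdhd (0.57), Ndufs1 (0.52), Atp5pb (0.37) and the muscle-expressed Lrrc39 (2.27). It was below 0 for Cry1 (-0.94) and Hspa1a (-1.46). Among genes higher at 30 d in Cop it was above 0 for Hbb (2.36), Spp1 (1.62), Nr1d1 (1.55), Alas2 (1.30), Lox (1.23), Fbn1 (0.89), Col1a1 (0.82) and Slc40a1 (0.63).

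Genes with no call in Cop made up the rest. The skeletal muscle genes Myl11 (8.23), Tnnc2 (7.53), Myl1 (7.40), Ckm (7.39) and Tnni2 (7.22) had the widest differences. Clca1 (-5.12), Areg (-3.74), Fabp3 (-3.19), C3 (-2.96), Krt15 (-2.84), Mki67 (-2.28) and Krt14 (-1.45) lay on the other side.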

How the results depend on the processing

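The count of 1557 probe sets for the change to 30 d in Cop controls (381 higher, 1176 lower) stayed within 1.5 times under quantile normalization, a floor, 2 filters, no trend or robust options, both marker covariates and 30 d against 6 h alone, and the share called higher was 31.6% with quantile normalization against 24.5%. It was 663 (159 higher, 504 lower) with the 9 arrays alone, 889 (227 and 662) against 1 d alone, and 512 (198 and 314) without 30 d replicate 2 and with the compared arrays alone, an alternative chosen after seeing the data. Leaving out 1 Cop array gave 511 to 1726 (184 to 460 higher, 327 to 1328 lower). With a replicate block 1264 passed. The strain difference (1054) fell to 41 (28 and 13) with the skeletal muscle score as a covariate, under which Tnnc2 (-0.47), Myl1 (-0.33), Ckm (-0.47) and Tnni2 (-0.30) changed sign, as the covariate is built from such genes. It was 787 with a replicate block, and 346 to 1094 (177 to 493 higher, 169 to 709 lower) leaving out 1 array, the F344 ones added after seeing the data. The 103 probe sets of 1 d against 6 h (28 higher, 75 lower) became 166 with quantile normalization (78 higher, 47.0% against 27.2%), 67 without a filter (17 higher), 54 with the replicate block (17 and 37), 215 alone (66 and 149), 50 higher with the T and B cell covariate, and 9 to 186 leaving out 1 array (3 to 61 and 6 to 125). The cause was not tested. Dbp reversed to -0.015 against 1 d alone, since 1 d was as high as 30 d. Of 102 called genes the text could name, 56 passed whichever Cop array was left out and 68 passed without 30 d replicate 2. Over 2660 single-gene comparisons 2328 kept direction and side of the threshold, 317 lost the call, 14 gained it and 1 reversed.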

Other observations

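Between 1 d and 6 h some Cop genes moved by large amounts. Cyp2e1, a cytochrome P450, averaged 5.61 at 1 d and 9.56 at 6 h (limma adjusted p = 0.00434), with 30 d values of 7.76, 7.20 and 6.42 between these means. The methyltransferase Inmt averaged 5.80 at 1 d and 7.74 at 6 h (limma adjusted p = 0.00434), the matrix protease Mmp11 5.29 and 7.61 (limma adjusted p = 0.0189), and Arxes1 8.16 and 10.19 (limma adjusted p = 0.0215). None of these 4 passed at 30 d against the mean of both times. Gys2 averaged 7.28 at 1 d and 5.53 at 6 h (limma adjusted p = 0.00344), and Pmel, a pigment cell protein, 6.98 and 5.47 (limma adjusted p = 0.0104). Altogether 103 probe sets passed (0.496%), 28 higher and 75 lower at 1 d, and 166 with quantile normalization, 78 of them higher.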
